A study of Mus musculus with 6 samples.

Results

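The genes examined here encode the mitochondrial beta-oxidation of fatty acids together with the steps that activate and import the fatty acids. They were taken by name: acyl-CoA synthetases, carnitine-dependent import, acyl-CoA dehydrogenases, the electron transfer flavoprotein that accepts their electrons, and the enzymes that finish each cycle. Of 33 named genes 30 had a row among the 22695 rows of the count table. Acsl3, Acsf3 and Acad11 were not analysed here. The data are poly-A RNA-seq counts from snap-frozen inguinal white adipose tissue, a fat pad under the skin of the groin, of mice aged 20 months. There were 3 samples of GSNOR KO mice on C57BL/6J, which lack S-nitrosoglutathione reductase, and 3 samples of C57BL/6J WT mice. The labels give no promoter or Cre for the deletion, so it is described only as a knockout, and they give neither the sex nor the diet of the animals. Whether every sample is a separate mouse is not stated, and the p-values reflect sample-to-sample spread alone.

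Long-chain fatty acids are first coupled to coenzyme A, handed to carnitine by CPT1 on the outer mitochondrial membrane and returned to coenzyme A by CPT2 inside. Each turn of the cycle then runs through an acyl-CoA dehydrogenase, a hydratase, a hydroxyacyl-CoA dehydrogenase and a thiolase, and releases acetyl-CoA. Malonyl-CoA, the first product of fatty acid synthesis, inhibits CPT1. White fat oxidises little of the fatty acid it stores, whereas thermogenic brown and beige fat and skeletal muscle oxidise much of it.

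Libraries held 20277594 to 23961574 counts, and mitochondrially encoded transcripts took 28.8 to 37.8% of them. Adh5, the gene of GSNOR, was at 4, 3.81 and 5.08 CPM in GSNOR KO replicates 1 to 3, against 76.9, 66.4 and 58.8 CPM in WT replicates 1 to 3 (CPM, counts scaled to library size with TMM factors), so every library matched its label. The 12 adipocyte markers summed to 15257 to 17083 CPM in GSNOR KO and to 13782 to 16108 CPM in WT, with overlap. Among them 1 rose, the lipase gene Pnpla2, and 1 fell, the leptin gene Lep, at 10.8 ± 1.52 CPM in GSNOR KO and 177 ± 118 CPM in WT (SD, n = 3 each, log2 fold change -4.03, edgeR adjusted p = 0.0181), while Adipoq was at 455 ± 16.1 CPM in GSNOR KO and 441 ± 128 CPM in WT. The thermogenic gene Ucp1 was at 1591 ± 463 CPM in GSNOR KO and 1098 ± 493 CPM in WT. Its libraries overlapped and it did not pass (log2 fold change 0.54, edgeR adjusted p = 0.38). The 19 skeletal muscle markers with a row, none of them at 0, summed to 7310 to 11304 CPM in GSNOR KO and to 17521, 18154 and 44053 CPM in WT, with WT replicate 1 highest. The 12 brown and beige markers summed to 5150 to 6476 CPM in GSNOR KO and to 2915 to 4498 CPM in WT. The 8 macrophage markers summed to 118 to 159 CPM in GSNOR KO and to 264 to 574 CPM in WT. Of these markers 7 of 19 muscle and 5 of 8 macrophage genes fell, and 3 of 12 brown and beige genes rose. Across all tested genes 3.14% fell, 3.9% rose and 36.7% did not overlap between the groups, in either direction. None of the 3 sums overlapped between the groups. Nor did those of 8 progenitor and fibroblast markers, at 229 to 286 CPM in GSNOR KO and 376 to 571 CPM in WT (4 of 8 fell), or of 6 endothelial markers, at 1657 to 2005 CPM in GSNOR KO and 892 to 1597 CPM in WT (1 of 6 tested fell). The 8 lymphocyte markers summed to 4.98 to 7.33 CPM in GSNOR KO and to 7.53 to 42.0 CPM in WT, and the 4 liver markers to 0.0899 to 0.63 CPM in GSNOR KO and to 2.07 to 3.06 CPM in WT. The part of these cell types in the results was not tested. A score of the muscle markers, used below as a covariate, itself separated the groups. Centred on its mean over all libraries, it was -0.408, -1.08 and -0.535 in GSNOR KO replicates 1 to 3, against 1.55, 0.235 and 0.244 in WT replicates 1 to 3. A fit with this score therefore cannot separate muscle content from genotype, and its results are given as values only. The 8 mammary and skin epithelium markers summed to 0.854, 0.449 and 3.82 CPM in GSNOR KO replicates 1 to 3. In WT replicates 1 to 3 they summed to 0.744, 0.735 and 0.823 CPM, so GSNOR KO replicate 3 was highest. Among these 8 the milk protein genes Csn2 and Wap were at 0 in every library. In bulk tissue, fewer cells of a type and less RNA per cell cannot be told apart.

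The beta-oxidation genes that rose in GSNOR KO were spread over activation, carnitine import, the dehydrogenases and electron transfer, by 1.41 to 2.82 times. All 30 genes with a row passed the filter on low counts. By edgeR's quasi-likelihood test with Benjamini-Hochberg adjustment over 13694 genes, called under an adjusted p of 0.05, 6 rose, 1 fell and 23 did not pass. Across all tested genes 7.04% were called, 3.9% higher and 3.14% lower. The 6 that rose were Acsl5, Acsm3, Slc22a5, Acad10, Acadvl and Etfb, and the 1 that fell was Acsl6. The log2 fold change was positive for 20 and negative for 10 of the genes, with a median of 0.20, beside a median of -0.04 over all tested genes. In CPM, the 3 GSNOR KO libraries lay above the 3 WT libraries for 15 of the 30 genes and below for 1, while 17.3% of all tested genes were separated upward and 19.5% downward. At an unadjusted p under 0.05 stood 12 of the 30, beside 28.6% of all tested genes. DESeq2 called 9 higher and 1 lower, adding Acsf2, Crat and Eci1. It called 12.9% of all 17717 genes with any count, a wider set than the 13694 that edgeR tested. Any gene that DESeq2's own filter on low counts left without an adjusted p was counted there as not called. The 12.9% is therefore not a share of the genes that edgeR tested. Together the 30 genes took 2.19, 2.22 and 2.14% of the counts outside the mitochondrial genome in GSNOR KO replicates 1 to 3, against 1.82, 1.81 and 2.02% in WT replicates 1 to 3. The groups did not overlap in that share.

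**Figure D1:**
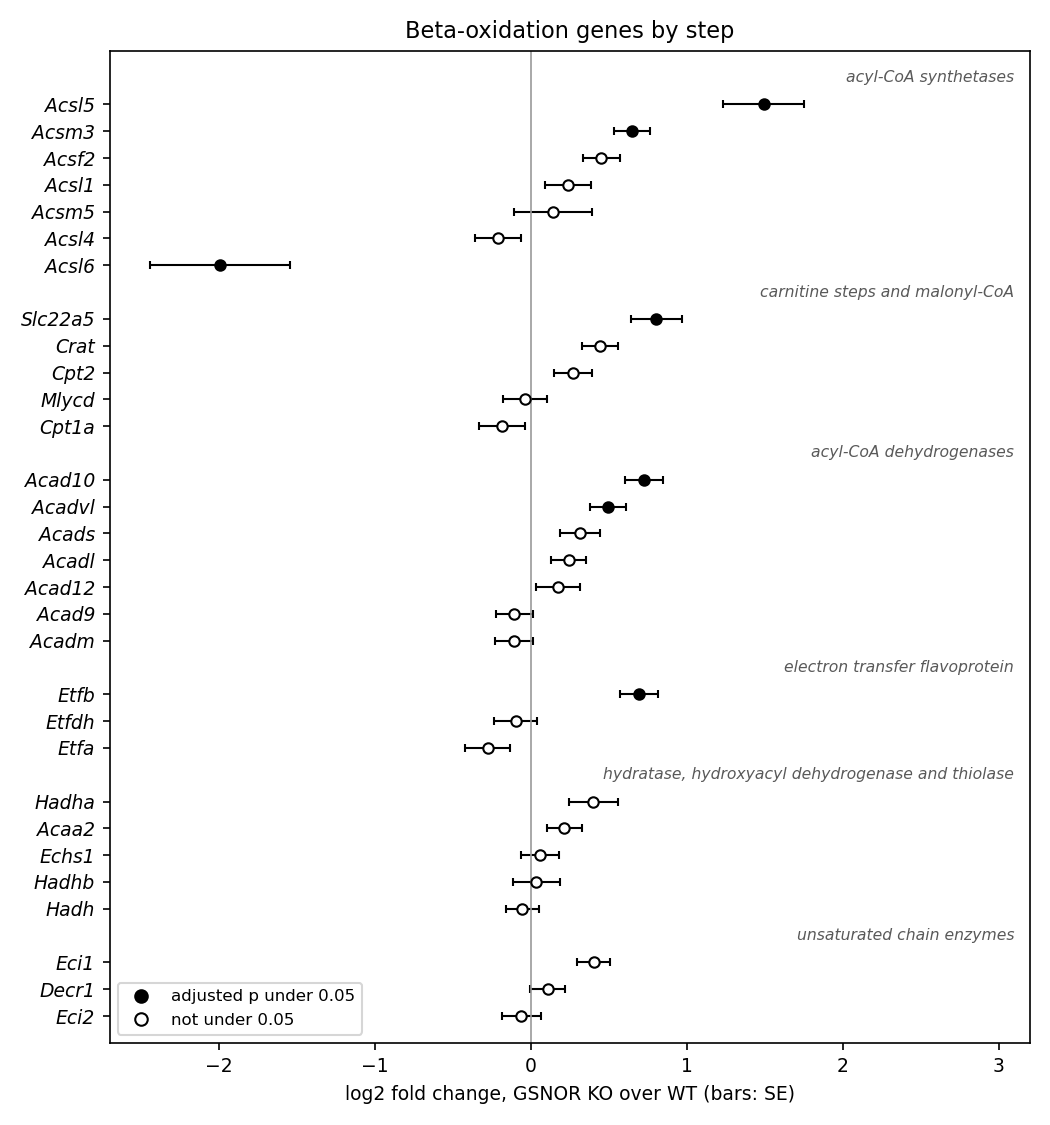
Log2 fold change of GSNOR KO over WT for the 30 genes, grouped by step, with bars for the SE. Filled points mark the 7 genes under an adjusted p of 0.05; Acsl5 at 1.50 and Acsl6 at -1.99 lie farthest from 0.

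Acyl-CoA synthetases, which commit a fatty acid to metabolism by attaching coenzyme A, held both the largest rise among the 30 genes and the single fall. Acsl5 (ENSMUSG00000024981, chr19:55251938-55297720, GRCm38 here and throughout) encodes a long-chain synthetase of mitochondria and endoplasmic reticulum. It was at 117, 241 and 164 CPM in GSNOR KO replicates 1 to 3, against 56.6, 57.6 and 71.2 CPM in WT replicates 1 to 3. Its GSNOR KO libraries all lay above the WT libraries and spread more widely, with replicate 2 highest. The means were 174 ± 62.7 CPM in GSNOR KO and 61.8 ± 8.16 CPM in WT (SD, n = 3 each, log2 fold change 1.50, SE 0.26, edgeR adjusted p = 0.0275), a 2.82-fold rise. With a score of the muscle markers as a covariate the log2 fold change of Acsl5 was 0.96 (adjusted p = 0.233). Acsm3 (ENSMUSG00000030935, chr7:119760923-119787513), a mitochondrial medium-chain synthetase, was at 52.1, 42.1 and 46.7 CPM in GSNOR KO replicates 1 to 3, against 28.7, 31.5 and 29.8 CPM in WT replicates 1 to 3. The groups did not overlap, and Acsm3 rose 1.57-fold (log2 fold change 0.65, SE 0.116, edgeR adjusted p = 0.0277). Acsl6 (ENSMUSG00000020333, chr11:54303798-54364756), a long-chain synthetase best known from brain, was at 1.03, 0.494 and 0.539 CPM in GSNOR KO replicates 1 to 3, against 3.81, 2.76 and 1.69 CPM in WT replicates 1 to 3. These values rest on 23, 11 and 12 counts in GSNOR KO and 87, 60 and 37 counts in WT. All GSNOR KO libraries lay below the WT libraries, and Acsl6 fell (log2 fold change -1.99, SE 0.449, edgeR adjusted p = 0.0446). Acsl6 was highest in WT replicate 1, as were the sums of the muscle and macrophage markers, and the part of either was not tested. With the muscle score as a covariate the log2 fold change of Acsl6 was -1.05 (adjusted p = 0.319).

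The synthetase with the highest FPKM, Acsl1, did not pass. Acsl1, the long-chain synthetase typical of adipocytes, was at 1001, 949 and 942 CPM in GSNOR KO replicates 1 to 3, against 701, 967 and 783 CPM in WT replicates 1 to 3. WT replicate 2 lay inside the range of GSNOR KO, and the other WT libraries lay below it (log2 fold change 0.24, adjusted p = 0.322). With the muscle score as a covariate its log2 fold change was -0.004 (adjusted p = 0.993). Acsf2, another medium-chain synthetase, was separated between the groups, at 91.2 ± 6.94 CPM in GSNOR KO and 66.6 ± 6.56 CPM in WT, and missed the threshold (log2 fold change 0.45, adjusted p = 0.061). Acsl4, which prefers arachidonic acid, and Acsm5 had log2 fold changes of -0.21 and 0.14, and their libraries overlapped.

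In the carnitine steps 1 of 5 genes rose, beside 3.9% of all tested genes. It was the carnitine importer of the plasma membrane. Slc22a5 (ENSMUSG00000018900, chr11:53864542-53891660), also called OCTN2, was at 61.2, 83.7 and 73.6 CPM in GSNOR KO replicates 1 to 3, against 34.9, 47 and 43 CPM in WT replicates 1 to 3. The groups did not overlap. Slc22a5 rose 1.75-fold (log2 fold change 0.81, SE 0.161, edgeR adjusted p = 0.0345), and its log2 fold change was 0.35 with the muscle score as a covariate (adjusted p = 0.245). Crat, the carnitine acetyltransferase, was at 764, 814 and 779 CPM in GSNOR KO replicates 1 to 3, against 542, 563 and 628 CPM in WT replicates 1 to 3. Its libraries were separated, yet it missed the threshold (log2 fold change 0.44, adjusted p = 0.0602). Cpt2, the inner-membrane palmitoyltransferase, was at 364, 412 and 368 CPM in GSNOR KO replicates 1 to 3, against 298, 303 and 349 CPM in WT replicates 1 to 3, also separated and also not passing (log2 fold change 0.27, adjusted p = 0.196). Cpt1a, the CPT1 form typical of liver, had a log2 fold change of -0.18 and Mlycd, the malonyl-CoA decarboxylase, one of -0.04, with overlapping libraries for both.

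**Figure D2:**
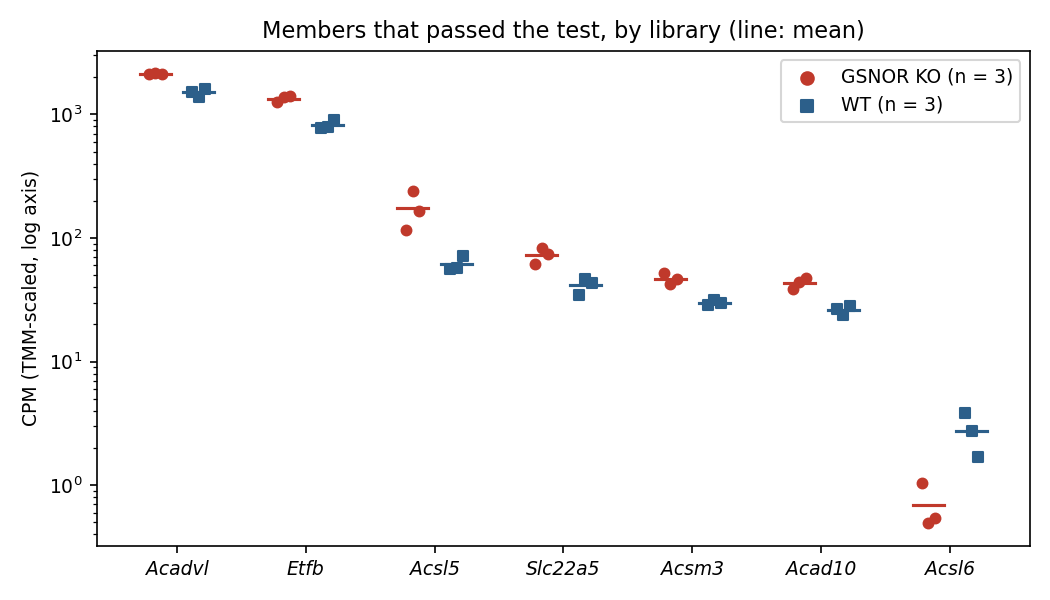
CPM (log axis) of the 7 beta-oxidation genes that passed the test, 1 point per library with a line at the mean of 3, for GSNOR KO (circles) and WT (squares). No gene has overlapping groups, and Acsl6 lies near or below 4 CPM in every library.

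Among the acyl-CoA dehydrogenases, which open each turn of the cycle, 2 of 7 rose, beside 3.9% of all tested genes. Acadvl (ENSMUSG00000018574, chr11:70010183-70015411), the enzyme for very long chains, was at 2108, 2152 and 2133 CPM in GSNOR KO replicates 1 to 3, against 1531, 1389.5 and 1609 CPM in WT replicates 1 to 3. The GSNOR KO libraries lay within a narrow band above all WT libraries. Acadvl rose 1.41-fold (log2 fold change 0.50, SE 0.116, edgeR adjusted p = 0.0477) and lost its call with no filter (adjusted p = 0.0618), without robust dispersion (0.0516), with library totals only (0.104) and with the replicate block (0.0952). Acadm, the medium-chain enzyme, was at 739, 748 and 724 CPM in GSNOR KO replicates 1 to 3, against 821, 705 and 856 CPM in WT replicates 1 to 3, with the GSNOR KO libraries inside the range of WT (log2 fold change -0.11, adjusted p = 0.598). Acad10 (ENSMUSG00000029456, chr5:121621026-121660514), a less studied relative, was at 38.9, 44 and 47.3 CPM in GSNOR KO replicates 1 to 3, against 26.7, 23.8 and 28.3 CPM in WT replicates 1 to 3. The groups were separated, and Acad10 rose 1.65-fold (log2 fold change 0.73, SE 0.122, edgeR adjusted p = 0.025). Its relative Acad12, the next gene on chromosome 5, had a log2 fold change of 0.18 with overlapping libraries. Sequence shared by these relatives could split reads between them. Acadl, the long-chain enzyme, was at 1122 ± 55.8 CPM in GSNOR KO and 947 ± 46.5 CPM in WT (log2 fold change 0.24, adjusted p = 0.204), and Acads, the short-chain enzyme, at 304 ± 8.92 CPM in GSNOR KO and 244 ± 29.5 CPM in WT (log2 fold change 0.31, adjusted p = 0.153). Both were separated between the groups and did not pass. Acad9, also an assembly factor of respiratory complex I, had a log2 fold change of -0.11.

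RefSeq promoter sequences (GRCm38.p6) matched 29 of the 33 names, with 32 windows. They were searched on both strands, over the 250 bases before the start site, for the nuclear receptor half-site AGGTCA that PPAR and related receptors recognise, for the GC box GGGCGG and for the CCAAT box CCAAT. No motif lies within another, though the ends of adjacent matches can share letters. The half-site was in 5 of the 32 windows, those of Acadm, Acadvl, Acsl6, Cpt1a and Echs1, and in 14% of all 32851 promoter windows. The GC box was in 19 of the 32, beside 32.7% of all windows, and the CCAAT box in 16 of the 32, beside 33.8%. Among the genes that rose, the half-site was in the window of Acadvl alone, shown here (chr11:70015429-70015678, minus strand, 5′ to 3′) with the half-site in capitals. A match describes the letters and does not show binding.
Acadvl: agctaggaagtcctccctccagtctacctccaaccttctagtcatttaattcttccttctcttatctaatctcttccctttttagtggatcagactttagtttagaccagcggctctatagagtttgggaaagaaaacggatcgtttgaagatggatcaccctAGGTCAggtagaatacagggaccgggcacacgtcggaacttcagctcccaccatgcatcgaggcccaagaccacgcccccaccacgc

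The electron transfer flavoprotein carries electrons from the dehydrogenases to the respiratory chain, and 1 of its 3 genes rose, beside 3.9% of all tested genes. Etfb (ENSMUSG00000004610, chr7:43444083-43457800), the beta subunit, was at 1251, 1372 and 1397 CPM in GSNOR KO replicates 1 to 3, against 781, 793 and 906 CPM in WT replicates 1 to 3. The groups did not overlap, and Etfb rose 1.62-fold (log2 fold change 0.70, SE 0.122, edgeR adjusted p = 0.0273). Etfa, the alpha subunit that pairs with it, was at 315, 345 and 335 CPM in GSNOR KO replicates 1 to 3, against 453, 331 and 420.0 CPM in WT replicates 1 to 3. WT replicate 2 lay within the GSNOR KO range and the other WT libraries above it (log2 fold change -0.28, adjusted p = 0.253). Etfdh, which passes the electrons on to ubiquinone, overlapped between the groups, at 220.4 ± 10.7 CPM in GSNOR KO and 236 ± 36.2 CPM in WT (log2 fold change -0.10, adjusted p = 0.69). The promoters of both subunits are printed because the genes of these partner proteins gave different values. The upstream window of Etfb (chr7:43443822-43444071, plus strand) and that of Etfa (chr9:55512244-55512493, minus strand) each hold 2 CCAAT boxes, in capitals on either strand, and neither holds the half-site or a GC box.
Etfb: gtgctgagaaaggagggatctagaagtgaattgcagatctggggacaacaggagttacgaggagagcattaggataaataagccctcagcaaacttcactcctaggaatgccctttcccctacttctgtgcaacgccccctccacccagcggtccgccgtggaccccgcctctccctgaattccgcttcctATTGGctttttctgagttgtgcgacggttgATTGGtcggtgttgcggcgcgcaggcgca
Etfa: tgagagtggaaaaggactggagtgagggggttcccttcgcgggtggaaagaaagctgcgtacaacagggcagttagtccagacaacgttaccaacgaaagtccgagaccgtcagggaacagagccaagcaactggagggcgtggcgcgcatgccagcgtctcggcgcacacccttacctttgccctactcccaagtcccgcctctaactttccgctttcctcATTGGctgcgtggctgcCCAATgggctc

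The ratio of Etfb to Etfa counts within a library, which does not depend on scaling between libraries, was 3.97, 3.98 and 4.17 in GSNOR KO replicates 1 to 3, against 1.72, 2.4 and 2.16 in WT replicates 1 to 3. The groups did not overlap, with means of 4.04 ± 0.115 in GSNOR KO and 2.09 ± 0.342 in WT (SD, n = 3 each). This pair and the others whose ratios are given were chosen after counts had been seen, so the ratios are a description with no test. Base composition differed between the pair: the longest annotated transcript of Etfb has 57.1% GC and that of Etfa 45%. Across all tested genes with a known transcript the log2 fold change correlated with GC content (Spearman 0.33, 13042 genes), and across the 30 beta-oxidation genes it did so with a Spearman value of 0.424. Genes are not independent replicates. With offsets for GC content and length the Etfb to Etfa difference was 1.54-fold, against 1.96-fold without them, and Etfb did not pass (log2 fold change 0.45, adjusted p = 0.0886).

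**Figure D3:**
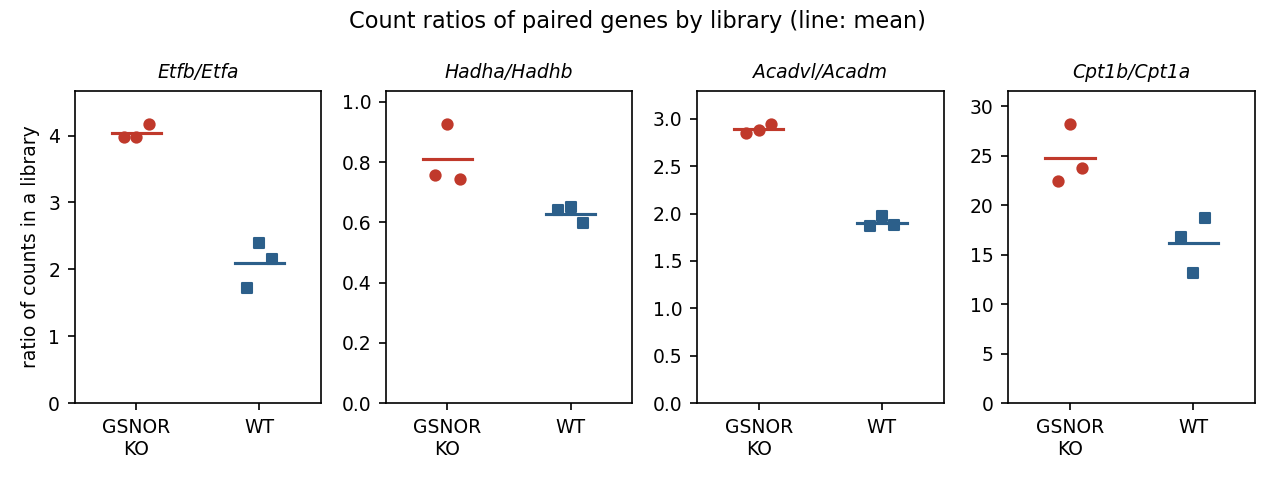
Ratios of counts within each library for 4 gene pairs, with a line at the mean, for GSNOR KO (circles) and WT (squares). The 3 GSNOR KO libraries lie above the 3 WT libraries in each pair, and the Acadvl to Acadm ratio was 2.89 ± 0.0475 in GSNOR KO and 1.91 ± 0.0568 in WT.

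Among the enzymes that complete the cycle edgeR called 0 of 5 and DESeq2 likewise 0, while 1 of them, Hadha, had an unadjusted edgeR p under 0.05. Over all genes edgeR called 7.04% and DESeq2 12.9%, and 28.6% had an unadjusted edgeR p under 0.05. Beside these shares, 0 or 1 of 5 does not set this step apart. Acaa2, the thiolase that cuts off acetyl-CoA, was at 1707, 1725 and 1667 CPM in GSNOR KO replicates 1 to 3, against 1456, 1373 and 1558 CPM in WT replicates 1 to 3. Its groups were separated but it did not pass (log2 fold change 0.22, adjusted p = 0.252). Hadha, the alpha subunit of the trifunctional protein with hydratase and dehydrogenase activity, was at 1138, 1298 and 1055 CPM in GSNOR KO replicates 1 to 3, against 1045, 756 and 842 CPM in WT replicates 1 to 3. GSNOR KO replicate 3 lay just above WT replicate 1, and Hadha did not pass (log2 fold change 0.40, adjusted p = 0.148). Hadhb, the beta subunit with thiolase activity, was at 1504, 1400.4 and 1415 CPM in GSNOR KO replicates 1 to 3, against 1633, 1164 and 1413 CPM in WT replicates 1 to 3, with overlapping groups (log2 fold change 0.04, adjusted p = 0.896). Its direction turned to -0.01 with library totals as the scaling. Hadh, the dehydrogenase for shorter chains, and Echs1, the short-chain hydratase, had log2 fold changes of -0.05 and 0.06.

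The subunit genes Hadha and Hadhb stand head to head on chromosome 5, with RefSeq start sites at 30154980 and 30155253 and 272 bases between them. In GENCODE M21 Hadha starts closer to Hadhb, at 30155162, which leaves 85 bases. Those are shown because the same stretch lies in front of both genes (chr5:30155163-30155247, plus strand, read toward Hadhb). It holds 2 GC boxes, in capitals, and neither of the other motifs.
Hadha and Hadhb: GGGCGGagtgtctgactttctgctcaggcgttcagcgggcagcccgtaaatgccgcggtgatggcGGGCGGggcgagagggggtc

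The ratio of Hadha to Hadhb counts was 0.757, 0.927 and 0.746 in GSNOR KO replicates 1 to 3, against 0.639, 0.65 and 0.596 in WT replicates 1 to 3, without overlap. With the offsets for GC content and length the difference was 1.09-fold, against 1.29-fold without them. The longest annotated transcripts have 51.3% GC for Hadha and 39.1% for Hadhb.

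Genes for unsaturated chains, which shift or reduce double bonds so that the cycle can proceed, gave 0 of 3 calls with edgeR. DESeq2 called 1 of them, the enoyl-CoA isomerase gene Eci1, which was also the 1 with an unadjusted edgeR p under 0.05. The shares over all genes were 7.04% called by edgeR, 12.9% called by DESeq2 and 28.6% at an unadjusted edgeR p under 0.05. With 3 genes, 0 or 1 does not set this step apart from those shares. Eci1 was at 366, 389 and 385 CPM in GSNOR KO replicates 1 to 3, against 291, 272 and 299 CPM in WT replicates 1 to 3. The groups were separated (log2 fold change 0.40, adjusted p = 0.063). Decr1, the dienoyl-CoA reductase, was at 434, 456 and 438 CPM in GSNOR KO replicates 1 to 3, against 429.6, 379 and 422 CPM in WT replicates 1 to 3, separated by a small margin (log2 fold change 0.11, adjusted p = 0.557). Eci2, an isomerase of mitochondria and peroxisomes, had a log2 fold change of -0.06, with overlap.

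Levels were compared between genes only in the authors' FPKM, which is scaled to transcript length. The lengths used are not recorded, and FPKM over counts varied between libraries for single genes, so the order of levels depends on them. Acaa2 stood highest, at 2553, 2449 and 2090.3 FPKM in GSNOR KO replicates 1 to 3, against 1842, 1841 and 2208 FPKM in WT replicates 1 to 3. Etfb followed at 1286, 1263 and 1206 FPKM in GSNOR KO replicates 1 to 3, against 837, 708 and 911 FPKM in WT replicates 1 to 3, which placed the GSNOR KO libraries above all WT libraries. Hadhb, Acadm and Acadvl came next, with means of 863, 789 and 747 FPKM in GSNOR KO and 816, 789 and 544 FPKM in WT. Hadhb was at 863 ± 58.5 FPKM in GSNOR KO and 816 ± 194 FPKM in WT, and Acadm at 789 ± 19.7 FPKM in GSNOR KO and 789 ± 111 FPKM in WT, so these neighbours in the order lay within their spread in WT. The synthetases and carnitine genes ranged from 224 FPKM for Acsl1 and 240.5 for Cpt2 down to 8.36 for Cpt1a and 0.176 for Acsl6 in GSNOR KO, against 184, 199, 9.92 and 1.02 FPKM in WT. Acsl5, the most raised gene, had 60.6 ± 20.2 FPKM in GSNOR KO and 20.3 ± 2.98 FPKM in WT. It stayed below Acsl1 in every library: the Acsl5 to Acsl1 ratio of FPKM was 0.175, 0.383 and 0.264 in GSNOR KO replicates 1 to 3, against 0.117, 0.0863 and 0.131 in WT replicates 1 to 3. Separation of the groups depended on the measure for some genes. Acaa2, Hadha, Acads, Acsf2 and Decr1 were separated in CPM and overlapped in FPKM, while Acsl1 overlapped in CPM and was separated in FPKM.

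**Figure D4:**
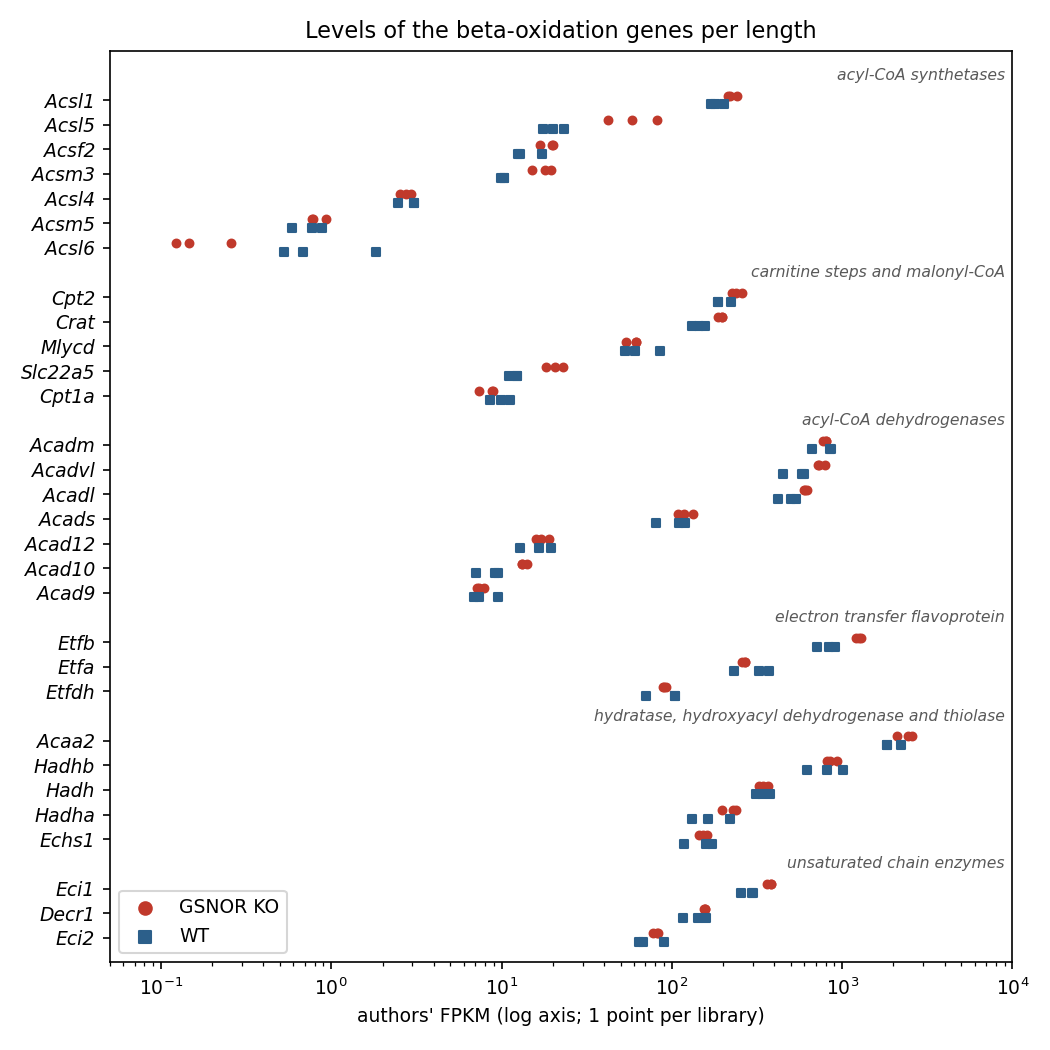
The authors' FPKM (log axis) of the 30 beta-oxidation genes grouped by step and ordered by level, 1 point per library, GSNOR KO (circles) above WT (squares). Levels span from Acsl6, with a mean of 0.176 FPKM in GSNOR KO and 1.02 FPKM in WT, to Acaa2, with a mean of 2364 FPKM in GSNOR KO and 1964 FPKM in WT.

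Further genes of mitochondrial oxidation gave 4 of 15 called higher and 0 lower, with a median log2 fold change of 0.26. Across all tested genes 3.9% were called higher and 3.14% lower, with a median of -0.04. Cpt1b, the CPT1 form of muscle and brown fat, was at 671, 789 and 718 CPM in GSNOR KO replicates 1 to 3, against 479.9, 532 and 576 CPM in WT replicates 1 to 3. Its groups were separated and it did not pass (log2 fold change 0.46, adjusted p = 0.0701). By FPKM, Cpt1b exceeded Cpt1a 45.8 ± 7.66 times in GSNOR KO and 27.9 ± 7.01 times in WT (SD, n = 3 each). Slc25a20, the carnitine carrier of the inner membrane, had a log2 fold change of 0.17. Hsd17b10, a mitochondrial hydroxyacyl-CoA dehydrogenase, rose, at 183 ± 12.7 CPM in GSNOR KO and 104 ± 3.62 CPM in WT (log2 fold change 0.82, SE 0.108, edgeR adjusted p = 0.0181). Ucp3, an uncoupling protein, and Echdc2 and Echdc3, which carry an enoyl-CoA hydratase domain, rose with log2 fold changes of 0.93, 0.67 and 0.52.

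In peroxisomal beta-oxidation, the parallel route for very long chains, 4 of 17 tested genes rose and 1 fell, with a median of 0.32. The shares over all tested genes were 3.9% higher and 3.14% lower. Besides the bifunctional enzyme Ehhadh and the very long-chain synthetase Slc27a2 (log2 fold changes 1.20 and 1.29), the thiolase Acaa1a rose, at 228, 241 and 253 CPM in GSNOR KO replicates 1 to 3, against 142, 146 and 155 CPM in WT replicates 1 to 3, without overlap. The dienoyl-CoA reductase Decr2 rose by 0.65 on the log2 scale. Abcd2, a peroxisomal fatty acyl-CoA transporter, fell, at 43.5 ± 14.1 CPM in GSNOR KO and 96.1 ± 18.4 CPM in WT (log2 fold change -1.14, adjusted p = 0.0466).

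Regulators of fatty acid oxidation, from malonyl-CoA enzymes to transcription factors, gave 4 of 18 called higher and 1 lower, with a median of 0.03. The shares over all tested genes were 3.9% higher and 3.14% lower. Acacb, the acetyl-CoA carboxylase that makes malonyl-CoA at the mitochondrial membrane, was at 1042, 1004 and 979 CPM in GSNOR KO replicates 1 to 3, against 410.2, 355 and 533 CPM in WT replicates 1 to 3. The lowest GSNOR KO library lay well above the highest WT library, and Acacb rose 2.33-fold (log2 fold change 1.22, SE 0.167, edgeR adjusted p = 0.0189). Its cytosolic relative Acaca rose too, with a log2 fold change of 1.56. Mlycd, which removes malonyl-CoA, was at 123, 137 and 128 CPM in GSNOR KO replicates 1 to 3, against 158, 119 and 122 CPM in WT replicates 1 to 3, with overlapping groups. Prkaa2, a catalytic subunit of AMP-activated kinase, fell (log2 fold change -1.22, adjusted p = 0.0477). Prkaa2 was highest in WT replicate 1, as were the sums of the muscle and macrophage markers, and the part of either was not tested.

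Among the transcriptional regulators in the same list, the coactivator gene Ppargc1b was at 47.5, 80 and 65.7 CPM in GSNOR KO replicates 1 to 3, against 30, 28.3 and 25.2 CPM in WT replicates 1 to 3, separated and higher (log2 fold change 1.21, SE 0.193, edgeR adjusted p = 0.0226). Esrra, an orphan nuclear receptor that acts with such coactivators, rose with a log2 fold change of 0.54. Ppargc1a was at 7.07 ± 0.558 CPM in GSNOR KO and 8.41 ± 1.35 CPM in WT (log2 fold change -0.25, adjusted p = 0.391). Ppara, the fatty acid-sensing nuclear receptor of oxidative tissues, was at 205, 218 and 196 CPM in GSNOR KO replicates 1 to 3, against 94.6, 138 and 183 CPM in WT replicates 1 to 3. Its groups were separated, WT was widely spread, and Ppara did not pass (log2 fold change 0.57, adjusted p = 0.145).

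Genes of fatty acid supply gave 4 of 13 called higher and 1 lower, with a median of 0.31. The shares over all tested genes were 3.9% higher and 3.14% lower. Slc27a1, a fatty acid transport protein, and its relative Slc27a4 rose with log2 fold changes of 0.90 and 0.48. Plin5, which links lipid droplets to mitochondria, was at 302, 303 and 306 CPM in GSNOR KO replicates 1 to 3, against 228, 213 and 219.5 CPM in WT replicates 1 to 3 and rose (log2 fold change 0.46, SE 0.102, edgeR adjusted p = 0.0423). The fourth was Pnpla2. Fabp3, the fatty acid-binding protein of heart and muscle, fell (log2 fold change -0.73, adjusted p = 0.0332), and it was highest in WT replicate 1. The part of muscle in this fall was not tested.

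Each call depended on single libraries. Without GSNOR KO replicate 1, 2 or 3 or without WT replicate 2, edgeR called 0 of the 30 genes, with 10 to 12 of them at an unadjusted p under 0.05, and over all tested genes it then called 0.0357, 0.0216, 0.0216 and 0.0935%, in that order of left-out library. WT replicate 1 had the highest sums of muscle and macrophage markers and the lowest sums of endothelial and of brown and beige markers. Without WT replicate 1, 10 of the 30 rose and 1 fell, beside 20.5% called over all genes in either direction. The added calls were Acads, Acsf2, Crat, Eci1 and Hadha, and Acsl5 lost its call (adjusted p = 0.0595). Without WT replicate 3, 5 rose and 1 fell, beside 6.58% over all genes, and Acadvl lost its call (adjusted p = 0.0577). The folds were steadier than the calls: over the 6 leave-outs Acadvl stayed between 0.44 and 0.58 on the log2 scale, Etfb between 0.67 and 0.80 and Acsm3 between 0.57 and 0.72. Acsl5 ranged from 1.19 to 1.72 and Acsl6 from -2.40 to -1.65. With the muscle score as a covariate 0 of the 30 were called and 9 lay at an unadjusted p under 0.05, beside 1.96% called over all genes. Acadvl, Acsm3 and Acad10 then had log2 fold changes of 0.51, 0.67 and 0.73, and Acsl5 and Etfb of 0.96 and 0.57. The offsets for GC content and length left 4 called, Acsl5, Acsm3, Slc22a5 and Acad10, beside 3.8% over all genes. Limma voom called 6 higher and 0 lower, beside 5.37%, and limma on log2(FPKM + 1) 3 higher and 0 lower, beside 1.45%. With the replicate number as a block 5 rose and 1 fell, beside 6.46%.

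**Figure D5:**
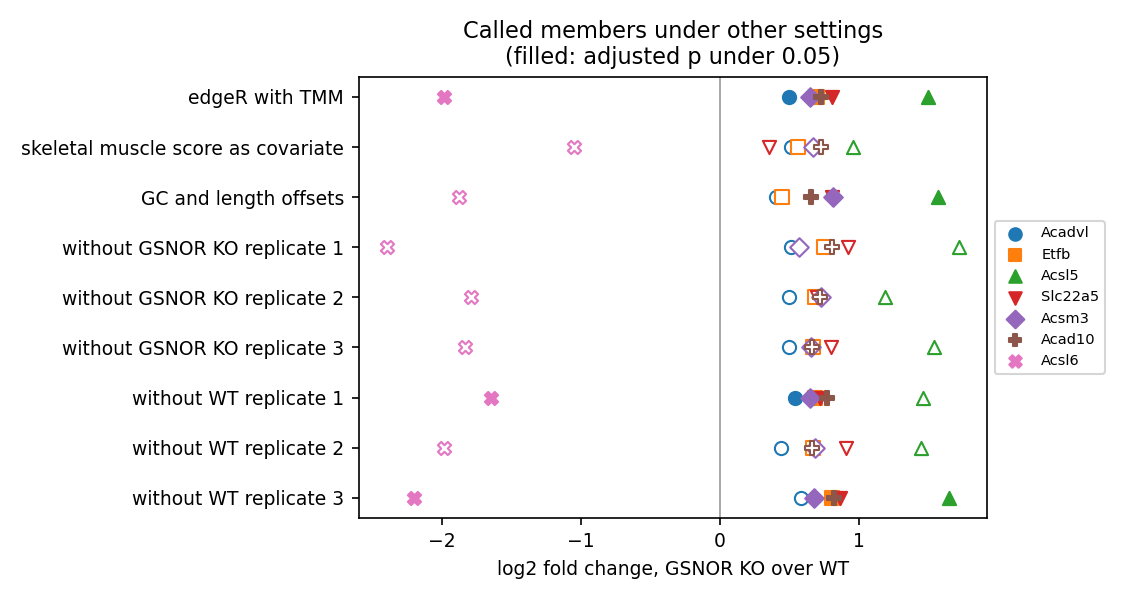
Log2 fold change of GSNOR KO over WT for the 7 called genes in the main analysis, with the muscle score as a covariate, with GC and length offsets and with each library left out. Filled symbols mark an adjusted p under 0.05; signs do not change, and every symbol is open with the muscle score, without any 1 of the GSNOR KO replicates and without WT replicate 2.

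The strand used in counting is not recorded in the labels or headers, and 10 of the 30 genes overlap an annotated protein-coding gene in GENCODE M21. Among the called genes, Acsl5 overlaps Zdhhc6, Acsm3 overlaps Eri2 and Acadvl overlaps Dvl2, each on the opposite strand. Zdhhc6, Eri2 and Dvl2 had log2 fold changes of -0.03, 0.02 and 0.26, and edgeR called 0 of the 3, with adjusted p = 0.873, 0.977 and 0.201. Etfb shares nearly all of its span with an annotated gene on the same strand, Gm45233. Cpt1b, outside the 30, shares 9459 bases with another on its own strand, Gm44502. The part of these overlaps in the counts was not tested.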

How the data were processed

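Poly-A RNA-seq of inguinal fat from 3 GSNOR KO and 3 WT samples was analysed. The authors deposited raw whole-number counts per gene, per the file headers. The deposited FPKM, named so in the file headers, are scaled to transcript length and library size. The build was GRCm38 (mm10), per the submitters' processing notes. For the aligner, counter and strand setting: not given in the sources used here.

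Genes were tested with edgeR 4.0.16 in R 4.3.3 (filterByExpr, 13694 genes, TMM, robust quasi-likelihood F test, Benjamini-Hochberg, 0.05). A check of this procedure on simulated counts required the median folds and the direction of calls to be recovered. It set no limit on false calls. Fold changes are log2 of GSNOR KO over WT, and SE is the absolute log2 fold change over the square root of F. CPM are TMM-scaled. A count of 3 was 0.125 to 0.148 CPM. Transcript length and GC come from the longest GENCODE M21 transcript. The muscle score is the mean log2 CPM (prior count 3) of the muscle markers. Alternatives used limma 3.58.1 (voom, or log2(FPKM + 1)), DESeq2 1.42.0, a non-robust fit, RLE size factors, a filter of 1 CPM in 3 libraries or none, scaling by library totals only, the replicate block, the muscle score, GC and length offsets, no mitochondrially encoded genes, and each library left out.

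Named were Adh5, every member, the called genes of the related lists, and Cpt1b, Slc25a20, Ppara, Ppargc1a and Acacb. Members and lists were chosen with earlier results of these data known. The overlapping genes and the markers Adipoq, Lep, Ucp1, Csn2 and Wap were named after their values were seen.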

Additional observations from a re-analysis of the deposited data

How the results depend on the processing

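The 964 genes called in all became 2292 with DESeq2, 269 with the muscle score as a covariate, 199 with limma on log2(FPKM + 1), 520 with offsets for GC content and length, and 3 to 2844 when a library was left out. The 6 members called higher became 4 with library totals only, where Acsm3 (adjusted p = 0.0551) and Acadvl lost their calls, 5 with no filter or without robust dispersion, 0 with the muscle score, 3 on log2(FPKM + 1) and 0 to 10 when a library was left out. The 1 member called lower became 0 with limma voom, the muscle score, log2(FPKM + 1) or the offsets, and 0 to 1 when a library was left out. The median of 0.20 was 0.14 with library totals only, 0.25 with the muscle score and 0.19 to 0.25 when a library was left out. The cause of these shifts was not tested. Whether the replicate numbers pair the samples cannot be settled from these data. Correlations of deviations between the groups were 0.159, 0.137 and -0.0589 for like numbers and -0.221 to 0.191 for unlike numbers. With the replicate block 884 genes, 5 members higher and 1 lower were called, and the median was 0.20.

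Of 540 values of 30 members under 18 alternatives, 462 kept direction and side of the threshold, 50 lost and 8 gained a call, and 20 changed sign, all in members that did not pass. With the muscle score these were Acsl1 (-0.00435), Mlycd (0.25), Acad9 (0.0231), Hadh (0.0407) and Eci2 (0.23). On log2(FPKM + 1) they were Acadm (0.0093), Hadh (0.00969) and Eci2 (0.14). With library totals only it was Hadhb (-0.0138), and with the offsets Acsl4 (0.0172), Etfdh (0.0352) and Eci2 (0.0174). Over the 6 left-out libraries Mlycd ranged from -0.11 to 0.13, Acad9 from -0.17 to 0.0093, Etfdh from -0.21 to 0.0364, Echs1 from -0.0225 to 0.14, Hadh from -0.0718 to 0.0142, Hadhb from -0.0791 to 0.19 and Eci2 from -0.11 to 0.0928. The offsets, and a fit without mitochondrially encoded genes (981 called), were chosen after seeing the data. Depth limits Acsl6 most among the called members, with at most 87 counts in a library.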
